A study of Homo sapiens
Mus musculus with 24 samples.

Results

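The murine keratin genes and the murine genes of the cornified envelope were followed in tumors of MDA-MB-231 cells grown in mice. Members were taken by symbol from the murine table: keratins (Krt followed by a number), keratin-associated proteins (Krtap), the late cornified envelope (Lce) and small proline-rich (Sprr) families, Krtdap, and 8 genes named singly (filaggrin Flg, filaggrin 2 Flg2, loricrin Lor, involucrin Ivl, desmoglein Dsg1a, desmocollin Dsc1, trichohyalin Tchh and hornerin Hrnr). This gave 17 of the 16667 murine genes, namely 16 keratins and Krtdap. The rule found 0 members among Krtap, Lce, Sprr and the 8 genes named singly, which are not analysed here.

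All mice were female B6/Rag1KO (Rag1 null) animals, which lack mature T and B cells, and all carried a subcutaneous tumor of MDA-MB-231 at the base of the neck. MDA-MB-231 is a human triple-negative breast cancer line, injected when the mice were 14 weeks old according to the labels. Once tumors exceeded 200 mm3, obese mice on a high-fat diet received weekly saline (CTRL, n = 4), weekly doxorubicin and cyclophosphamide (Chemo, n = 5), a high-fat diet holding moringa seed concentrate (MC, n = 5), or that diet with the same 2 drugs (MC + Chemo, n = 6). Lean mice (Lean, n = 4) had tumors and no intervention. Each of the 24 libraries is 1 whole tumor piece from 1 mouse, named here by group and mouse number, and holds human transcripts of the injected cells and murine transcripts of the host. MC + Chemo 5 is called MC in 1 label field and MC + Chemo in its title, and was taken by its title.

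Keratins are the intermediate filament proteins of epithelial cells and assemble as pairs of a type I and a type II chain. Simple epithelia use the pair Krt8 and Krt18 with Krt7 and Krt19, the basal layer of the epidermis and the outer root sheath use Krt5 and Krt14, and the layers above use Krt1 and Krt10. The inner root sheath and the shaft of the hair have keratins of their own, and the outermost epidermal cells replace their membrane with a cornified envelope built from loricrin, involucrin, filaggrin and the small proline-rich and late envelope proteins.

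Few of the genes that define skin were among the members. Of 7 epidermis markers (Krt5, Krt14, Krt1, Krt10, Lor, Flg and Ivl), 3 had a row (Krt5, Krt14 and Krt10), and of 7 hair follicle markers (Krt25, Krt27, Krt71, Krt31, Krt35, Krt85 and Tchh), 0 had one. The counts lay instead with Krt19, a type I keratin of simple epithelia, which took 59.4% of all counts of the 17 members. The group is therefore called below by its rule, the murine keratins and Krtdap. Per library they took between 0.0211% (CTRL 17) and 0.123% (MC + Chemo 52) of the murine counts.

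The 17 members fell into 8 classes by where each gene is known to be used. There were 4 simple epithelial keratins (Krt19, Krt18, Krt7 and Krt8), 3 basal keratins (Krt14, Krt5 and Krt15) and 4 keratins of the outer root sheath or of stressed epidermis (Krt17, Krt42, Krt16 and Krt79). The epidermal side held 2 members, the suprabasal keratin Krt10 and Krtdap, a secreted protein of differentiating keratinocytes. The hair follicle side held 3 members, the shaft keratins Krt83 and Krt87 and the inner root sheath keratin Krt73. Krt13, a keratin of moist stratified epithelia, stood alone.

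Values are normalized counts, which are read counts divided by the library's size factor. These 3′ libraries place a read at the end of a transcript, so counts were not divided by gene length. Shares and rankings of genes given here are of counts, and no order of transcript abundance between genes is drawn from them. Over the 24 libraries the mean normalized count was 2169 for Krt19, 386 for Krt18, 240 for Krt17, 230 for Krt10, 215 for Krt14, 167 for Krt7, 77.1 for Krt5 and 50.1 for Krt8. These 8 members were above 30 over the 24 libraries, the level the study asked of a gene's mean. The other 9 had means from 29.4 (Krt83) down to 3.19 (Krt79), and Krtdap was at 0 in 6 libraries and Krt79 in 8.

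**Figure D1:**
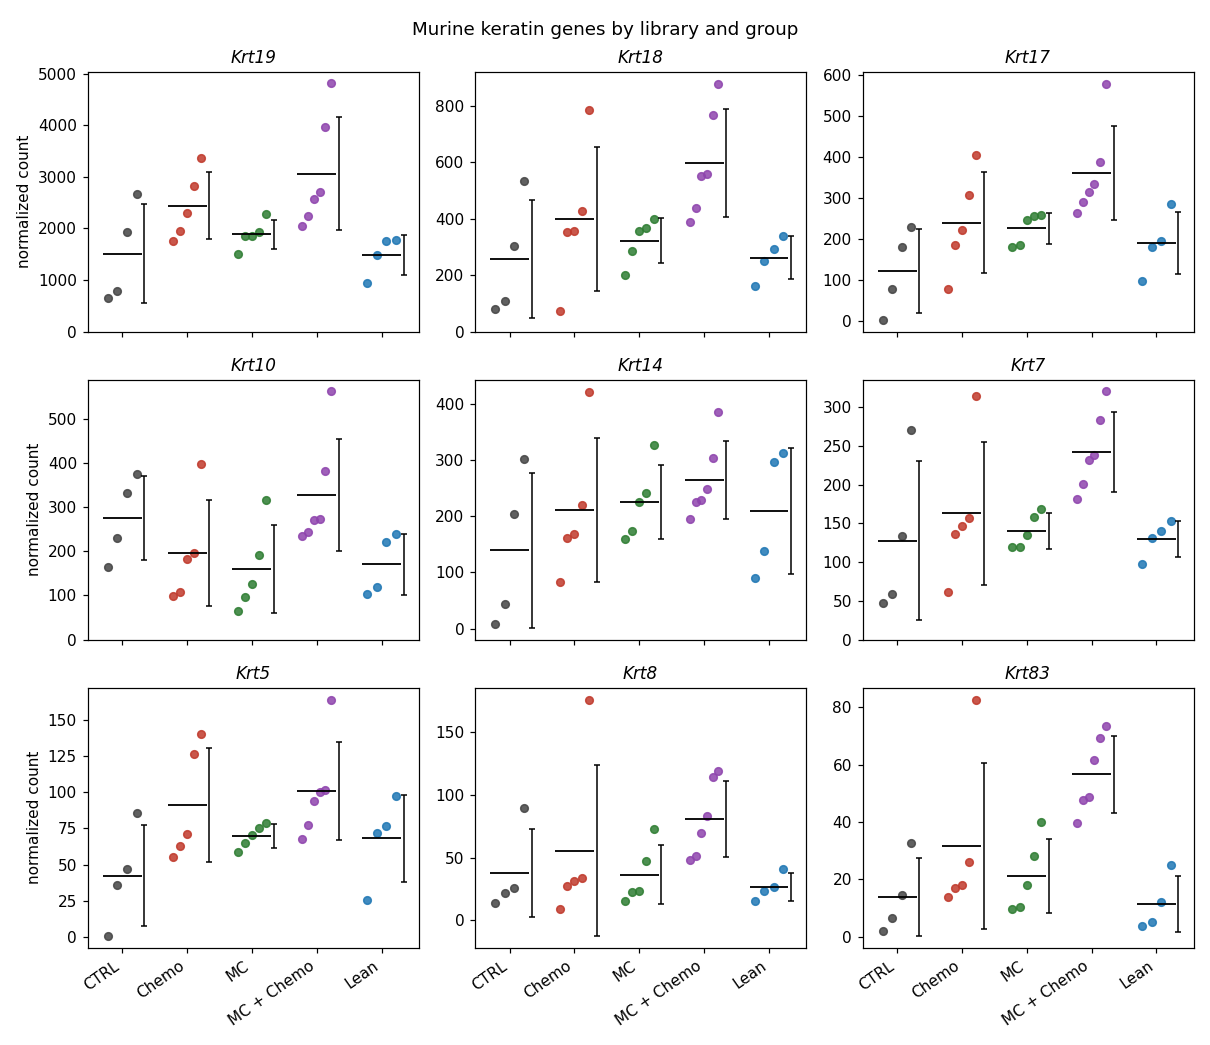
Normalized counts (linear axes, a different scale in each panel) of the 9 murine members with the highest means, by group. Each point is 1 tumor, the horizontal line is the group mean and the bar beside it the SD. The 6 MC + Chemo libraries lie above all 4 CTRL libraries for Krt17 and Krt83, as for 0.926% of all genes tested, and overlap them for the other 7 genes shown.

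The simple epithelial keratins had their highest group means in MC + Chemo. Krt19 stood at 645 in CTRL 17, 1941 in CTRL 31, 791 in CTRL 44 and 2673 in CTRL 70. In MC + Chemo it ran from 2045 to 4823 with a median of 2647. Of those 6 libraries 3 exceeded the highest CTRL library, and CTRL itself was split between a low pair (17 and 44) and a high pair (31 and 70). Chemo had 2305, 2831, 1945, 1766 and 3360, MC ran from 1496 to 2284, and Lean from 949 to 1783. The edgeR log2 fold change of Krt19 was 0.99 (SE 0.34, adjusted p = 0.264) in MC + Chemo, 0.69 (SE 0.35, adjusted p = 1.00) in Chemo, 0.33 (SE 0.34) in MC and -0.02 (SE 0.35) in Lean, each against CTRL.

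Krt18, the type I partner of Krt8, showed the same split of CTRL. Its normalized counts were 81.6, 305, 108 and 534 in CTRL 17, 31, 44 and 70, and 389 to 879 with a median of 554 in MC + Chemo. In Chemo they were 355, 429, 74.6, 353 and 787, so that group held both the lowest value of all 24 libraries (Chemo 33) and one of the highest (Chemo 67). The log2 fold change in MC + Chemo was 1.18 (SE 0.50, edgeR adjusted p = 0.351). Krt7, which pairs with simple type I keratins in ducts, differed by 0.89 (SE 0.41, adjusted p = 0.386), and Krt8 by 1.05 (SE 0.65, adjusted p = 0.518). Without Chemo 67 the Chemo difference from CTRL turned from 0.53 to -0.61 for Krt8 and from 0.34 to -0.05 for Krt7.

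Basal keratins were lowest in CTRL 17. Krt5 was at 0.96, 85.9, 35.9 and 47.1 normalized counts in CTRL 17, 31, 44 and 70, and ran from 67.9 to 164 with a median of 97.1 in MC + Chemo. Of the 6 MC + Chemo libraries, 4 exceeded the highest CTRL library. In Chemo it was 55.2, 70.9, 140, 62.6 and 126, in MC 58.5 to 79.0 and in Lean 25.9 to 97.5. The log2 fold change against CTRL was 1.23 (SE 0.51, edgeR adjusted p = 0.336) in MC + Chemo and 1.10 (SE 0.52, adjusted p = 1.00) in Chemo, and without CTRL 17 these were 0.81 and 0.68.

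Krt14, the partner of Krt5, had 7.68, 205, 43.6 and 303 in CTRL and 195 to 386 in MC + Chemo (median 239). The groups overlapped, and the log2 difference was 0.88 (SE 0.58, edgeR adjusted p = 0.537). Krt15, a keratin of basal cells and of the follicle bulge, was 0.96, 14.5, 2.56 and 28.9 in CTRL and 9.69 to 15.4 in MC + Chemo, a log2 difference of 0.05 (SE 0.59). The MC + Chemo values of Krt15 thus lay inside the CTRL range.

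Krt17, a keratin of the outer root sheath that is also induced in stressed or wounded epidermis, was one of 2 members without overlap between MC + Chemo and CTRL. Of all genes tested, 0.926% had every MC + Chemo library above every CTRL library. CTRL 17, 31, 44 and 70 had 3.84, 182, 78.2 and 231 normalized counts, and the 6 MC + Chemo libraries had 263 to 579 with a median of 326. The log2 fold change was 1.51 (SE 0.56, edgeR adjusted p = 0.285), and 1.10 without CTRL 17. In Chemo (79.7 to 406), MC (182 to 260) and Lean (99.6 to 285) the values overlapped CTRL. Krt16, Krt42 and Krt79, the other 3 of this class, had means of 4.03, 5.06 and 3.19 and did not pass the filter on low counts. Krt14, Krt16, Krt17 and Krt42 are close relatives in sequence, and reads shared between them could have been counted for either.

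The hair shaft keratin Krt83 was the other member without overlap. It stood at 1.92, 14.5, 6.41 and 32.7 in CTRL 17, 31, 44 and 70, at 39.7 to 73.4 (median 55.1) in MC + Chemo, and at 18.0, 14.0, 17.1, 26.0 and 82.7 in Chemo 19, 30, 33, 34 and 67. Chemo 67 alone lay above the MC + Chemo libraries. MC had 9.52 to 39.9 and Lean a mean of 11.5 ± 9.72 (SD, n = 4). The log2 fold change in MC + Chemo was 1.93 (SE 0.60, edgeR adjusted p = 0.226), and the exact permutation p of the 6 against 4 log2 values, two-sided, was 0.00476 for Krt83 and for Krt17, the smallest this design can give, among 68 such tests over members and comparisons. DESeq2 gave Krt83 1.99 and an adjusted p of 0.0477, and over all alternatives the adjusted p of Krt83 ran from 0.0477 to 0.363.

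The other hair members were near the floor of the counts. Krt87 had 0.96, 3.86, 8.97 and 6.91 in CTRL and 3.05 to 12.9 in MC + Chemo, a log2 difference of 0.39 (SE 0.55). Krt73 had 0.96, 6.76, 0 and 5.03 in CTRL and 2.43 to 9.00 in MC + Chemo, a log2 difference of 0.75 (SE 0.72). Both overlapped CTRL.

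On the epidermal side, Krt10 and Krtdap were high in CTRL 17, the library in which most other members were low. Krt16, at 3.84 there, was near its mean of 4.03. Krt10 was at 331, 164, 229 and 375 in CTRL 17, 31, 44 and 70. In MC it was 127, 192, 317, 97.3 and 64.7, in Chemo 197, 107, 97.8, 181 and 397, in MC + Chemo 235 to 563 (median 272) and in Lean 103 to 239. All groups overlapped. The log2 difference from CTRL was -0.77 (SE 0.43, edgeR adjusted p = 0.494) in MC, -0.49 (SE 0.43) in Chemo, 0.23 (SE 0.41) in MC + Chemo and -0.69 (SE 0.45) in Lean.

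Krtdap stood at 40.3 in CTRL 17, the highest of all 24 libraries, against 0.97, 2.56 and 3.14 in CTRL 31, 44 and 70. It was 0 in 3 of the 5 MC libraries, with 2.98 in MC 42 and 6.89 in MC 48, and ran from 3.86 to 13.8 in MC + Chemo. Its log2 difference in MC was -2.31 (SE 1.04, edgeR adjusted p = 0.389), and -0.02 without CTRL 17. In MC + Chemo it was -0.35 (SE 0.89), and 1.95 without CTRL 17. The direction for Krtdap thus rested on 1 tumor.

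That tumor stood apart for most of the members. CTRL 17 had the lowest value of all 24 libraries, or tied with it at 0, for 11 of the 17 members, and the highest for Krtdap. The keratinocyte gene Dmkn, which lies beside Krtdap in the stratified epithelium secreted protein complex and was picked after its values were seen, was at 258 normalized counts in CTRL 17 and at 19.3, 20.5 and 18.2 in CTRL 31, 44 and 70. Chemo 67 had the highest value for 6 members and MC + Chemo 52 for 4. Human KRT5, KRT14, KRT17 and KRT19 also had their lowest normalized counts of the 24 libraries in CTRL 17 (0.91, 10.9, 38.3 and 6155). Human KRT10 did not, at 1385. In whole tumor pieces, fewer cells of a type and less RNA per cell cannot be told apart, and the cause of these values was not tested.

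The epidermal and the hair follicle members were set side by side over the 5 groups. The epidermal level, the mean of log2 (normalized count + 1) of Krt10 and Krtdap, was 5.30 ± 1.15 (SD, n = 4) in CTRL and 4.38 ± 1.04 (n = 4) in Lean. It was 4.57 ± 0.92 (n = 5) under Chemo, 4.05 ± 0.90 (n = 5) under MC and 5.74 ± 0.25 (n = 6) under MC + Chemo. The hair follicle level, the same mean over Krt73, Krt83 and Krt87, was 2.46 ± 1.06 and 2.50 ± 0.24 in CTRL and Lean, and 3.17 ± 0.92, 3.27 ± 0.45 and 3.79 ± 0.28 under Chemo, MC and MC + Chemo. Subtracting hair from epidermal gave 2.84 ± 2.03 for CTRL and 1.89 ± 0.89 for Lean, beside 1.40 ± 0.58 for Chemo, 0.78 ± 0.93 for MC and 1.94 ± 0.29 for MC + Chemo.

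The difference was widest in CTRL 17, at 5.71, and CTRL without that library came to 1.88. MC 59, with no count of Krtdap, had the lowest difference (-0.48). With 2 and 3 members the 2 levels are descriptions of those genes and no test was made on them. The median edgeR log2 fold change of the 2 epidermal members against CTRL was -1.22 for Lean, -1.07 for Chemo, -1.54 for MC and -0.06 for MC + Chemo, and without CTRL 17 it was -0.02, 0.12, -0.35 and 1.14 in that order. The median over the hair follicle members was 0.62 in Chemo, 0.59 in MC and 0.75 in MC + Chemo (3 members tested), and -0.59 in Lean (2 tested). Leaving out 1 library at a time, it ran from 0.11 (without Chemo 67) to 1.12 (without CTRL 31) in Chemo, 0.24 (without CTRL 17) to 0.87 (without CTRL 70) in MC, 0.46 (without CTRL 17) to 1.26 (without CTRL 31) in MC + Chemo, and -0.93 (without CTRL 17) to -0.02 (without CTRL 70) in Lean.

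**Figure D2:**
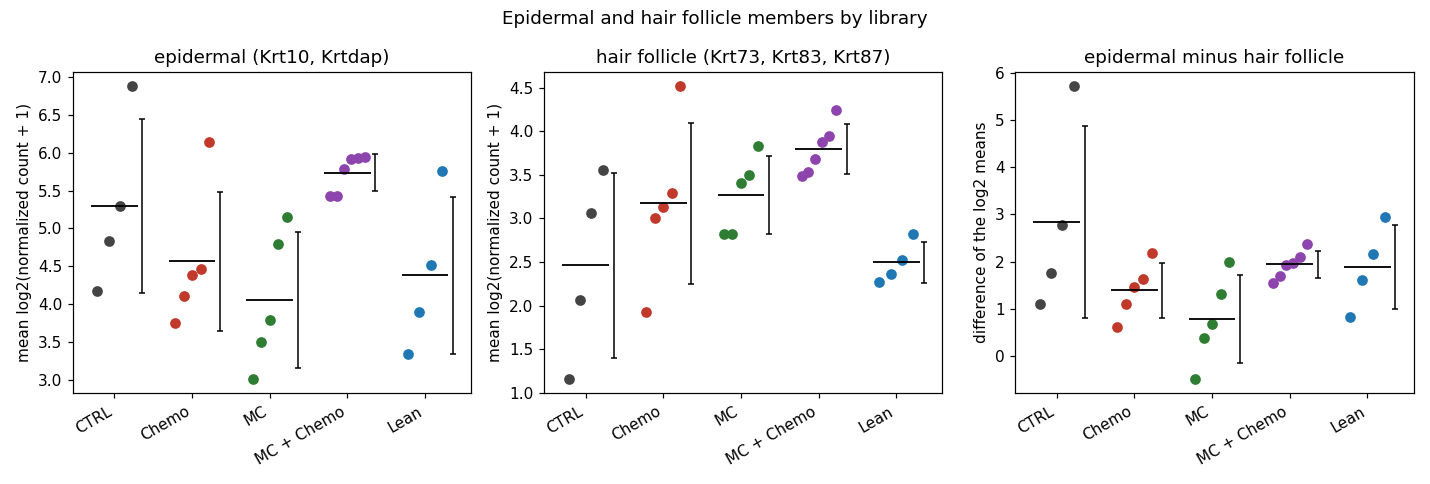
Mean log2 (normalized count + 1) of the 2 epidermal members, of the 3 hair follicle members, and the first minus the second, by group. Points are tumors, lines are group means and bars SD. CTRL 17 is the highest point of the first panel, the lowest of the second and, at 5.71, the highest of the third.

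By edgeR none of the members passed the test over all murine genes. A gene was called when the edgeR adjusted p was below 0.05, the mean normalized count above 30 and the fold change above 1.5. Of the 17 members 14 passed the filter on low counts in the fit to the 20 libraries of obese mice, and 13 in the fit to all 24. By edgeR 0 of them were called in Chemo, MC, MC + Chemo or Lean against CTRL, where the share called over all genes tested was also 0%, or for chemotherapy averaged over the 2 diets (0.0266%) or the interaction of MC and chemotherapy (0%). The mean for a call was that of the libraries in the fit, 32.9 for Krt83 over the 20 of obese mice. DESeq2 called 1 member, Krt83 in MC + Chemo (0.826% of all genes), and 0 in the other 5 comparisons (0.0933% in Chemo, 1.52% in MC, 0.00665% in Lean, 0.14% for the average and 0% for the interaction).

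At an unadjusted edgeR p below 0.05, MC + Chemo had 6 of the 14 members, Krt83, Krt19, Krt17, Krt5, Krt18 and Krt7, all higher than CTRL. The share of all genes was 12.4% in either direction and 5.1% higher. Chemo had 1, Krt5, higher (4.53% of all genes, 2.13% higher). MC had 1, Krtdap, lower (11.8%, 8.73% higher). Lean had 0 of 13 (3.11%, 1.37% higher), and DESeq2 gave 0 at that level too. Averaged over the diets, chemotherapy had 5, all higher, namely Krt83 (log2 1.236, SE 0.41), Krt19 (0.68, SE 0.23), Krt5 (0.80, SE 0.35), Krt18 (0.74, SE 0.34) and Krt17 (0.79, SE 0.38), against 5.7% of all genes in either direction and 2.39% higher. Their edgeR adjusted p over all genes ran from 0.649 to 0.875.

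These counts moved with single libraries. The shares of all genes above belong to the full fits. Those of the fits with a library left out are not given here, so no excess of members is read from the counts below. Without CTRL 70 there were 6 members in Chemo (all higher), 6 in MC (5 higher), 8 in MC + Chemo and 7 for the average. In MC + Chemo 3 were left without CTRL 44 or without MC + Chemo 52. The average had 2 without CTRL 44, Chemo 67 or MC + Chemo 52, and 3 without Chemo 30, MC 48 or MC + Chemo 25. Chemo had between 0 and 6 and MC between 0 and 6 over the libraries left out in turn, both with 0 without CTRL 17, and Chemo had 2 members, both lower, without Chemo 67. Lean had 1 without Lean 54 or CTRL 31.

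Read without a threshold, most fold changes were above 0 in Chemo, MC and MC + Chemo, but not in Lean. In MC + Chemo 13 of 14 were above 0, with a median of 0.89 on the log2 scale beside 0.01 over all genes, and the exception was Krtdap. In Chemo 11 of 14 were above 0 (median 0.55), in MC 10 of 14 (0.32) and in Lean 6 of 13 (-0.02). Without Chemo 67, Chemo had 6 of 13 (-0.05). Without CTRL 17, MC had 8 of 14 (0.03), and without the 3 libraries with an extra RNA cleanup (Lean 3, MC 41 and MC 42) 7 of 13 (0.09). Without CTRL 70, Lean had 10 of 13 (0.47). In MC + Chemo leaving out CTRL 17 gave a median of 0.67 and leaving out CTRL 70 gave 1.36, the lowest and the highest found, with at least 11 members above 0 whichever library was left out. These comparisons share the 4 CTRL libraries. In MC + Chemo, 2 of the 14 members had every library above every CTRL library, a pattern that 0.926% of all genes showed. In Chemo, MC and Lean 0 members did, beside 0.66%, 1.15% and 1.46% of all genes.

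The interaction, the extra difference in MC + Chemo beyond the sum of the separate differences, had an unadjusted edgeR p below 0.05 for Krtdap (log2 3.61, SE 1.40) and Krt10 (1.48, SE 0.58), with an adjusted p of 0.695 for both. Of all genes 6.87% reached that level, 3.57% above 0. The median of these 2 epidermal members was 2.55, and 1.36 without CTRL 17. The median of the 3 hair follicle members was -0.41.

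The murine keratins were then set beside the human genes of the same symbol in the same libraries, because MDA-MB-231 cells make keratins themselves. For every 100 counts on human KRT19 there were 9.75 on murine Krt19 over the 24 libraries, with 6.97 to 13.8 in single libraries. The normalized count of murine Krt19 varied 7.47-fold between the lowest and the highest library and that of human KRT19 6.29-fold, while the number of murine per 100 human counts varied 1.98-fold. For Krt5 there were 7.202 per 100. Leaving out CTRL 17, which had 1 murine and 1 human count, it varied 1.83-fold (5.46 to 9.96), while murine Krt5 varied 6.33-fold and human KRT5 8.26-fold.

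Other members lay further from a fixed proportion. Murine Krt18 came to 3.34 per 100 counts on human KRT18 (0.894 to 5.21), Krt17 to 7.95 (2.66 to 11.6), Krt7 to 1.71 (0.532 to 3.04) and Krt8 to 1.79 (0.483 to 3.53). Krt14 came to 76.4 per 100 (36.2 to 190) and Krt10 to 18.2 (5.90 to 30.3). Human KRT10 varied 2.27-fold and murine Krt10 8.69-fold. Krt13 ran from 7.93 to 900 per 100 and Krt16 from 0 to 400, both highest in CTRL 17, which had 1 human count for each. Without CTRL 17, Krt13 ran from 7.93 to 182 and Krt16 from 0 to 1.44.

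**Figure D3:**
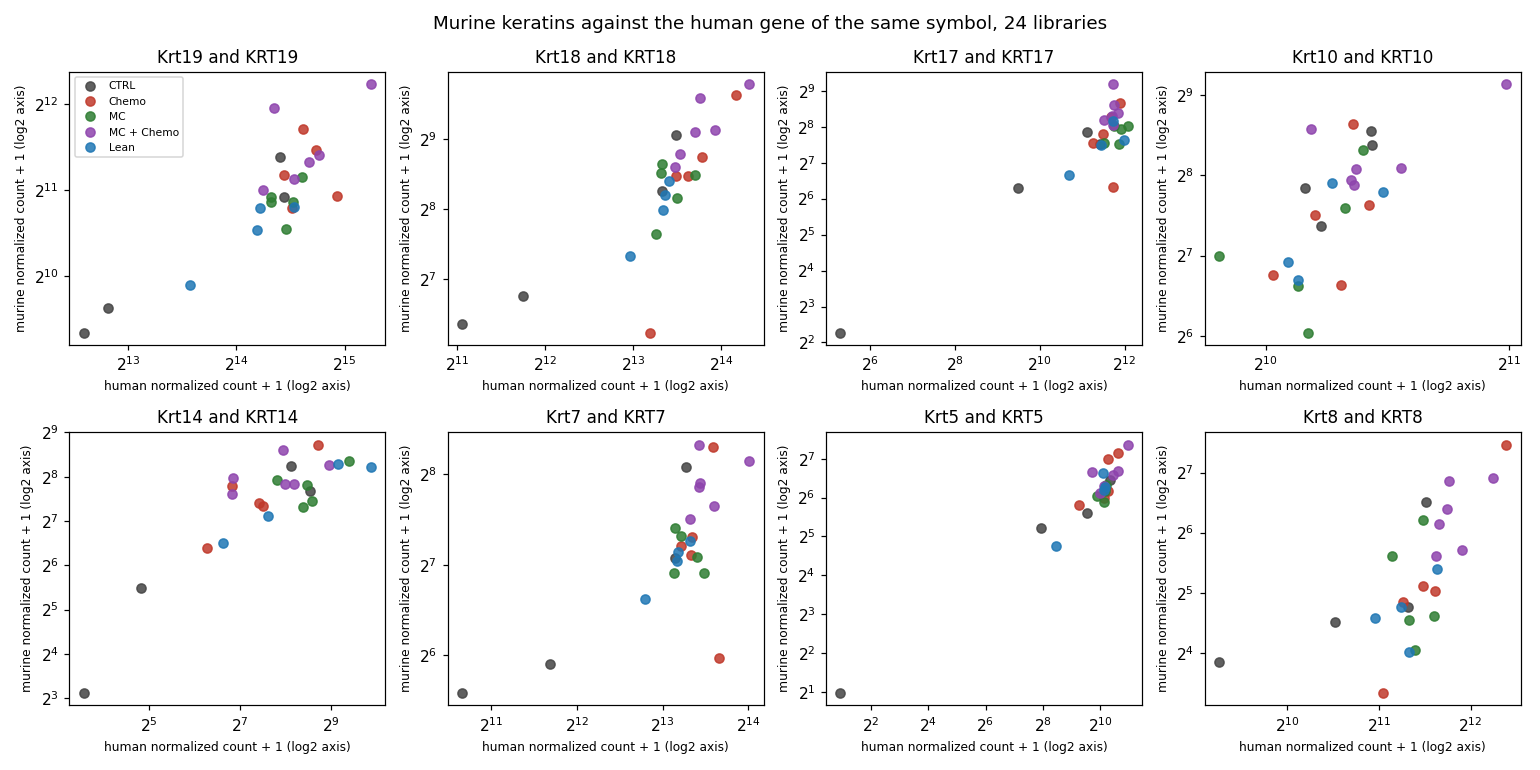
Murine against human normalized count plus 1 (both axes log2) for 8 keratins, 1 point per library, coloured by group. The 2 CTRL libraries at the lower left of most panels are CTRL 17 and CTRL 44. Pearson r runs from 0.68 (Krt8 and Krt10) to 0.97 (Krt5).

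Across the 24 libraries, the log2 levels of the murine and human genes were correlated for these 8 members. Pearson r was 0.97 for Krt5 (Spearman rho 0.79), 0.91 for Krt17 (rho 0.56), 0.86 for Krt14 (0.70), 0.85 for Krt19 (0.69), 0.81 for Krt18 (0.84), 0.70 for Krt7 (0.55), 0.68 for Krt10 (0.69) and 0.68 for Krt8 (0.80). For these 8, the permutation p adjusted over the 13 pairs computed was 3.25e-05 to 0.000231 for Pearson r and 8.67e-05 to 0.00943 for Spearman rho. The unadjusted p of 1e-05, found for Krt5, Krt14, Krt18 and Krt19, is the smallest that 100000 permutations can give.

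Without the 2 libraries farthest from the median of the human gene, r was 0.86 for Krt5, 0.80 for Krt18, 0.77 for Krt8, 0.71 for Krt19, 0.65 for Krt14, 0.62 for Krt10, 0.45 for Krt17 and 0.38 for Krt7. The relations of Krt17 and Krt7 thus rested in good part on those libraries, CTRL 17 and CTRL 44. After subtracting group means, r was 0.57 for Krt10 and 0.64 to 0.96 for the other 7. Krt15 (r 0.58, adjusted permutation p = 0.00355, rho 0.26, adjusted permutation p = 0.248) fell to 0.35 without its 2 farthest libraries. Krt13 (r 0.24, permutation p = 0.25) and Krt16 (r 0.12, permutation p = 0.57) showed no relation past the threshold.

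Same-symbol pairs in general gave lower values. Over 8501 murine and human genes with the same symbol and a mean above 30 in both tables, the median r was 0.44 and 11.3% exceeded 0.8, while the 8 member pairs had a median of 0.83 and 5 of them (62.5%) exceeded 0.8. The murine-to-human ratio was less variable than the murine level, by SD of log2 values, in 29.1% of all pairs and in 8 of the 8 members. The members also varied more in level, with a median SD of 1.00 beside 0.336 over all pairs. The median SD of the ratio was 0.528 in the members and 0.482 over all pairs, so their ratio was no less variable. The murine and the human total of a library enter each pair, so these are descriptions of the members beside all pairs. How reads that match both genomes were assigned is not given in the sources used here, and the part of such reads in the murine keratin counts was not tested.

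Krt83 has no human row of the same symbol here. The human hair keratins KRT81 and KRT86 are its close relatives, and these pairs were picked after values were seen. Krt83 had 0.0984 counts per 100 on KRT81 and 1.58 per 100 on KRT86. Pearson r across the 24 libraries was 0.69 with KRT81 and 0.66 with KRT86, and 0.51 and 0.48 without CTRL 17 and CTRL 44. The adjusted permutation p of r was 0.000231 and 0.000299, and that of Spearman rho (0.52 and 0.42) was 0.0144 and 0.0533.

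Fold changes of several human genes stood close to those of the murine members in MC + Chemo. Human KRT19 differed from CTRL by 0.85 (SE 0.30) on the log2 scale beside 0.99 for murine Krt19, KRT18 by 1.07 (SE 0.34) beside 1.18, KRT17 by 1.215 (SE 0.55) beside 1.51 and KRT5 by 1.21 (SE 0.66) beside 1.23. KRT10 differed by 0.16 (SE 0.15) beside 0.23. Further apart were KRT13 at 1.53 (SE 0.60) beside 0.59, KRT14 at 0.55 (SE 0.66) beside 0.88 and KRT15 at 0.28 (SE 0.48) beside 0.05. All 10 members with a tested namesake were above 0 in both genomes, with a median of 0.94 for the murine and 0.97 for the human genes. By edgeR none of these 10 human genes was called (1.6% of all 16434 human genes were), at adjusted p from 0.0833 to 0.771.

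In Chemo the murine median over the 10 was 0.55 and the human 0.86, in MC 0.22 and 0.71, and in Lean 0.02 and 0.56. Human KRT13 was 2.28 (SE 0.62, edgeR adjusted p = 0.0948) higher in Chemo, beside 0.35 (SE 0.43) for murine Krt13. The 3 comparisons use the same CTRL libraries in both genomes, CTRL 17 and CTRL 44 among them.

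**Figure D4:**
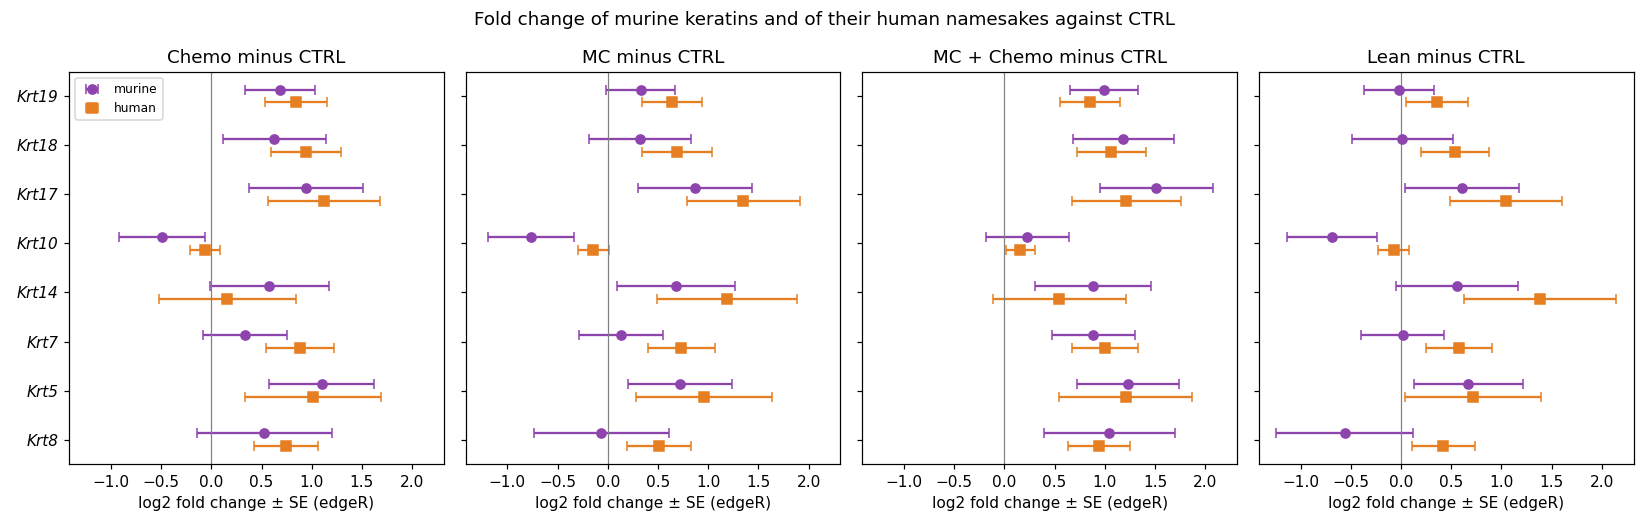
Log2 fold change against CTRL with its SE from edgeR for 8 murine keratins (circles) and their human namesakes (squares), in 4 comparisons on 1 common axis. In MC + Chemo all 16 values are above 0, from 0.16 (human KRT10) to 1.51 (murine Krt17).

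No difference between groups in the ratio of murine to human counts passed the test. The mean log2 ratio of Krt19 in MC + Chemo differed from that in CTRL by 0.04 (two-sided exact permutation p = 0.752), that of Krt17 by 0.04 (exact p = 0.752), that of Krt18 by 0.09 (exact p = 0.724) and that of Krt10 by 0.01 (exact p = 0.962). That of Krt5 differed by -1.16 in MC + Chemo (exact p = 0.0286) and -1.17 in MC (exact p = 0.0317), where CTRL 17 entered with 1 murine and 1 human count. For Krt83 over KRT81 it was 0.56 (exact p = 0.176). Over 13 pairs and 4 comparisons, 52 differences were tested, and the lowest exact p after adjustment over them was 0.413. With these group sizes the smallest exact p possible was 0.00476 for MC + Chemo, 0.00794 for Chemo and MC and 0.0286 for Lean. A single difference could thus not have passed after adjustment over 52, and a constant ratio is not shown. The lowest unadjusted p were those of Krt13 in Chemo (-3.03, exact p = 0.0159) and MC + Chemo (-2.03, exact p = 0.0238), where CTRL 17 had 1 human KRT13 count.

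Genes of skin outside the rule were read in the same libraries. Of 33 epidermal barrier genes 13 had a row and 5 a mean above 30. In MC + Chemo 9 of the 11 tested were above CTRL, and the median difference was 0.64 on the log2 scale beside 0.01 over all genes. Against the same CTRL libraries, 8 of 11 were higher in Chemo (median 0.23), 8 in MC (0.36) and 9 in Lean (0.11). The list was led by Dsp, the desmosomal plakin desmoplakin, with a mean of 2574 over the 24 libraries (996 to 2368 in CTRL, 1992 to 6087 in MC + Chemo, log2 0.64, SE 0.34, edgeR adjusted p = 0.441), and Col17a1, a hemidesmosome collagen (5.8 to 54.1 in CTRL, 23.8 to 98.5 in MC + Chemo). Of 21 hair follicle genes 9 had a row and 1, the transcription factor Msx1, a mean above 30 (28.8 to 95.6 in CTRL, 45.7 to 77.8 in MC + Chemo). Of the 5 hair follicle genes tested, 1 was above CTRL in MC + Chemo, with a median log2 difference of -0.24. That median was -0.20 in Chemo, -0.10 in MC and 0.12 in Lean. Among 8 melanocyte genes 2 had a row, Mlana and Sox10, with a summed count of 0 to 5.66 in CTRL and 3.24 to 39.6 in MC + Chemo. Sox10, the 1 tested, differed by 2.56 (SE 1.06, edgeR adjusted p = 0.338), and its pigment enzymes are not analysed here. By edgeR 0 genes of these 3 lists were called in any comparison. In MC + Chemo 1 of 11, 1 of 5 and 1 of 1 tested had an unadjusted edgeR p below 0.05, beside 12.4% of all genes. They were Sfn, Dlx3 and Sox10, named after their values were seen.

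The lists of other tissues a tumor piece can hold were read in the same libraries. The sebaceous list had 2 of 7 genes with a row, Soat1 and Elovl3, and 1 of them had a mean above 30. Their summed count was 501 to 711 in CTRL and 459 ± 92.7 (SD, n = 6) in MC + Chemo. With 2 genes the sum does not show that sebaceous tissue was present. The mammary luminal list had 2 of 8, the epithelial adhesion gene Epcam and Wfdc18, summing to 11.5 to 106 in CTRL and 113 to 224 in MC + Chemo, and its milk protein genes are not analysed here. Epcam was at 4.8, 90.8, 51.3 and 101 in CTRL 17, 31, 44 and 70 and differed in MC + Chemo by 1.16 (SE 0.47, edgeR adjusted p = 0.323), so the low pair of CTRL libraries was low for this gene too.

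Skeletal muscle genes, all 14 with a row, summed to 119 to 176 in CTRL, 114 to 2674 in Chemo, 99.7 to 41003 in MC, 117 to 69405 in MC + Chemo and 135 to 715 in Lean. Adipocyte genes, all 10 with a row, summed to 454 to 5507 in CTRL, 882 to 5172 in Chemo, 1541 to 113062 in MC, 969 to 74836 in MC + Chemo and 963 to 11405 in Lean. At an unadjusted edgeR p below 0.05, MC had 14 of the 14 muscle and 7 of the 10 adipocyte genes (8.73% of all genes were higher at that level), and MC + Chemo 13 and 5 (5.1%), all higher than CTRL. In MC 0 keratin members were higher at that level. Krt17 and Krt83 were named above because all 6 MC + Chemo libraries exceeded every CTRL library, and the muscle sums of those 6 ran from 117 to 69405. The part of tissue makeup in the group differences was not tested.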

How the data were processed

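Total RNA of 24 tumors was sequenced by the authors as Lexogen QuantSeq 3′ libraries with short forward reads and counted per gene with the BlueBee software. The deposited files hold the authors' read counts for a murine and a human table, and a normalized signal in which the deposited counts are divided by DESeq2 size factors. Recomputed factors equalled the deposited ones. The submitters' processing notes name GRCm38 and DESeq2 1.22.2, and the human build is not given in the sources used here. Murine counts ran from 3664056 to 9892470 and human counts from 7796231 to 17621273 per library. The lowest row total of the murine table was 72, and 0 pairs of libraries were identical. A mean of 4 to 6 counts, as in Krt73, leaves counting error that limits precision.

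The main test was the two-sided quasi-likelihood F test in edgeR 4.0.16 under R 4.3.3 (with limma 3.58.1), on TMM-scaled libraries, with filterByExpr and Benjamini-Hochberg adjustment over all genes tested, fitted to the 20 libraries of obese mice, or to all 24 for Lean. DESeq2 1.42.0, another scaling, no filter, only the groups compared, MC + Chemo 5 taken as MC, the 3 libraries with an extra RNA cleanup (Lean 3, MC 41 and MC 42) left out, and each library left out were alternatives. Log levels used a pseudocount of 1, ratios 0.5. Exact permutation tests compared log2 values of whole groups. Scripts were tested on simulated data. Members, classes and lists were chosen with earlier results of these data known. Named were the up to 3 members of each class with the highest mean, the usual skin and simple keratins, members called, the 3 lowest p in each comparison, and the 1 or 2 highest genes of each other list. Samples are different mice, and p-values measure the spread between them. The symbol match leaves out 2991 murine identifiers without a symbol. No sequence is printed, as no murine reference was used here.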

Additional observations from a re-analysis of the deposited data

Results flagged for a closer look

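Within groups of 4 to 6 libraries, the distance of the highest or lowest library from its nearest neighbour was compared with the whole range of the group. Distance and range were taken on log2 (normalized count + 1), while the values printed below are normalized counts. Of 100 such groups, 3 held a library that stood apart, where chance flags about 1 in 20. Krt13, the keratin of moist stratified epithelia, was at 57.0 normalized counts in Chemo 67, while the other Chemo libraries lay between 13.1 and 19.8. Chemo 67 also had the highest value of Krt14, Krt8 and Krt83. The same gene was at 17.6 in Lean 3, below the other 3 Lean libraries, of which the highest had 25.9. Lean 3 is 1 of the libraries with an extra RNA cleanup. Krt15 was at 2.44 in Chemo 34, below the other Chemo libraries (8.14 to 11.4). The cause of these values was not tested.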

How the results depend on the processing

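No paired analysis was possible because each mouse number occurs in 1 group only. In edgeR the number of members called stayed at 0 under every alternative and with each library left out, and DESeq2 called 1 (Krt83 in MC + Chemo, log2 1.99). Without the 3 libraries with an extra RNA cleanup, Krt13 and Krt83 in MC became -0.035 and -0.21, Krt18 in Lean -0.044, and the interaction median of the hair follicle members 0.32. With MC + Chemo 5 taken as MC, Krt8 in MC became 0.37 and Krtdap averaged over the diets -0.028. With only CTRL and MC + Chemo in the fit, 1 hair follicle member was tested (1.92). The cause was not tested.

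Leaving out 1 library at a time gave these ranges on the log2 scale where a direction turned. In Chemo they were Krt13 -0.23 to 0.56, Krt15 -0.90 to 0.47, Krt7 -0.051 to 1.03, Krt8 -0.61 to 1.46, Krt87 -0.14 to 0.55 and Krtdap -2.81 to 0.64. In MC they were Krt13 -0.18 to 0.29, Krt15 -0.995 to 0.39, Krt7 -0.16 to 0.82 and Krt8 -0.53 to 0.87. In MC + Chemo they were Krt15 -0.33 to 1.05 and Krtdap -0.73 to 1.95. In Lean they were Krt15 -1.12 to 0.25, Krt18 -0.28 to 0.66, Krt19 -0.27 to 0.41, Krt7 -0.26 to 0.70, Krt8 -0.85 to 0.36, Krt83 -1.03 to 0.54 and Krtdap -3.17 to 0.55. Averaged over the diets they were Krt15 -0.12 to 0.57, Krt87 -0.18 to 0.17 and Krtdap -0.43 to 1.30. The epidermal median ran from -1.87 to 0.12 in Chemo, -1.96 to -0.35 in MC, -0.34 to 1.14 in MC + Chemo, -2.03 to -0.021 in Lean and 1.36 to 3.34 for the interaction, where leaving out CTRL 17 gave the highest value in the 4 comparisons with CTRL and the lowest for the interaction. The hair follicle median of the interaction ran from -0.70 to 0.45, the latter without Chemo 67.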
